A study of Mus musculus with 3 samples.

Results

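The genes described here are those of fibroblast growth factor (FGF) signalling: the *Fgf* genes, the receptors *Fgfr1* to *Fgfr4* and *Fgfrl1*, the Sprouty (*Spry*) and Spred genes, *Dusp6*, *Il17rd*, the ETS factors *Etv4* and *Etv5*, and the *Flrt* genes. They were chosen by gene symbol, without use of any measured value. All 41 such genes were on the array, through 61 probes, among 20145 genes that probes could be assigned to.

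RNA was measured in 3 populations of cells purified by fluorescence-activated cell sorting (FACS), with 1 one-color Agilent array each. The ES-Lhx6-GFP+ population and its ES-Lhx6-GFP- counterpart came from J14 mouse embryonic stem (ES) cells, a male line of the 129S4/SvJae strain, differentiated toward the medial ganglionic eminence (MGE) with 100 ng/ml Dkk-1, an inhibitor of Wnt signalling, and 6 nM SAG, an agonist of hedgehog signalling. The labels give these cells an Lhx6-GFP BAC transgene and a virally delivered 692-mCherry enhancer reporter. On day 12, 1920 aggregates were pooled and separated into cells with and without GFP. MGE-Lhx6-GFP+ cells were sorted from the MGE of E12.5 embryos on a CD1 background that carried the Lhx6-GFP BAC, and the labels call them female. All groups thus share the Lhx6-GFP BAC, GFP marks the cells in which this transgene is active, and J14 is 1 cell line. By the paper's methods, aggregates were dissociated with a neural tissue kit and a Rock inhibitor, and the MGE with trypsin and DNase. Strain, sex, reporter virus, dissociation and source (culture or embryo) all differ between the embryonic and the ES-derived cells. Their contributions cannot be told apart.

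FGFs are secreted proteins that bind tyrosine kinase receptors together with heparan sulfate, and one main route inside the cell runs through RAS and the ERK kinases. ERK signalling turns on its own inhibitors, among them the Sprouty and Spred proteins, the phosphatase *Dusp6* and the membrane protein *Il17rd* (Sef), as well as the transcription factors *Etv4* and *Etv5*. In the embryonic telencephalon FGF8 from the rostral midline patterns the forebrain, and FGF receptors help to maintain radial glia, the dividing progenitors that line the ventricle. The FGF homologous factors *Fgf11* to *Fgf14* are not secreted and bind voltage-gated sodium channels in neurons, and FLRT proteins are membrane proteins that bind FGF receptors and guide migrating neurons.

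Of the 6 receptor and feedback genes that differed at least 2-fold in a comparison below, 5 had an entry among the RefSeq promoters of GRCm38.p6. The 250 bases before the transcription start of 4 of them are shown, 5′ to 3′ in the direction of the gene, because these genes separated the populations most clearly or in opposite ways. RefSeq lists another start of *Fgfr3* downstream of the one used, with its own entry, which is not shown. *Fgfr3* and *Fgfrl1* were highest in ES-Lhx6-GFP- cells, *Spry2* in ES-Lhx6-GFP+ cells and *Il17rd* in MGE-Lhx6-GFP+ cells. Capitals mark an ETS core (CCGGAA, or TTCCGG on the other strand) or an RBPJ core (TGGGAA, or TTCCCA), the motifs of factor families that act downstream of ERK and of Notch.

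Fgfr3, chr5:33721474-33721723, plus strand: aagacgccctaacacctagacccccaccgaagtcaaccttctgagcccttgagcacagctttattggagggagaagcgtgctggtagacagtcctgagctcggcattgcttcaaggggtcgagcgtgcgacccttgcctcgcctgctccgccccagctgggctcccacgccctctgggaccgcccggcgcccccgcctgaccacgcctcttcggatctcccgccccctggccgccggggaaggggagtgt

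Fgfrl1, chr5:108693979-108694228, plus strand: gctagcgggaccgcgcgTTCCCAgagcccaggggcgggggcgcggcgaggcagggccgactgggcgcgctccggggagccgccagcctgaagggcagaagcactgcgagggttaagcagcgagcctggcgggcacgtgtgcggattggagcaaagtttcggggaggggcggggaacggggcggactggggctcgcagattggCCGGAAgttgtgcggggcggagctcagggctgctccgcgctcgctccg

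Spry2, chr14:105896820-105897069, minus strand: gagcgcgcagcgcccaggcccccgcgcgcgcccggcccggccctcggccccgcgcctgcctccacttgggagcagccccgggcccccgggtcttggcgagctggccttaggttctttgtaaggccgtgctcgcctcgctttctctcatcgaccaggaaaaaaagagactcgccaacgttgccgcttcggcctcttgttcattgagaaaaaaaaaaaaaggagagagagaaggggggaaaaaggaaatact

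Il17rd, chr14:27038751-27039000, plus strand: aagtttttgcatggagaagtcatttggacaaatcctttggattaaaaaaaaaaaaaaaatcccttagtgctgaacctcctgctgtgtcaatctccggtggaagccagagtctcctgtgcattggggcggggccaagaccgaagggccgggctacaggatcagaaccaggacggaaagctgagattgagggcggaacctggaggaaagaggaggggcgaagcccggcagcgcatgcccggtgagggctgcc

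Among these 4 stretches, *Fgfrl1* held 1 ETS core, 48 bases before the start, and 1 RBPJ core, 233 bases before it, and the others held neither. Across all 32851 promoters of the table, 12.0% held an ETS core and 21.6% an RBPJ core within the same distance. The GC content was 66.8% for the *Fgfr3* entry shown (72.8% for the other), 73.6% for *Fgfrl1*, 62.4% for *Spry2* and 54.4% for *Il17rd*, against a median of 52.4% over all entries. A match of these letters is a description of the sequence and not evidence of binding.

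Intensities are background-subtracted spot intensities in arbitrary units, listed below with ES-Lhx6-GFP+ first, then ES-Lhx6-GFP-, then MGE-Lhx6-GFP+, and each gene's intensity is the geometric mean over its probes. Differences were taken after each array was divided by the 75th percentile of its mouse probes (747, 843 and 576), so a fold below is not the plain ratio of intensities. With 1 array a group no difference has a replicate check and none was tested, and precision is limited by this number of arrays. Repeat spots of a probe varied with an SD of 0.14 on the log2 scale on each array, from 305 to 358 probes with repeats. From this spot variation alone, 2 SDs of a difference between arrays would be 1.32-fold. Variation between samples or from their preparation is not in it. As a measure of signal not due to mouse RNA, 106 control probes for adenovirus E1A and ERCC spike sequences were used. Their 95th percentile was 377, 208 and 152, and a gene at or under it is called within the control range. The ES-Lhx6-GFP+ array had the brightest controls, with a median of 69.9 against 11.5 and 7.73. A gene was counted as different where it differed at least 2-fold and lay above the control range on the array where it was higher.

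The sorted populations carried the RNA their labels name. *Lhx6* had intensities of 22250, 4061 and 29403, and all 15 MGE and interneuron markers were at least 2-fold higher in each GFP+ population than in ES-Lhx6-GFP- cells. Summed intensities of the 8 neuronal markers were 89495, 65525 and 85235, with all 8 above the control range on each array. Of these, 2 were higher and 0 lower in each GFP+ population than in ES-Lhx6-GFP- cells. Radial glial markers (10 genes) summed to 11972, 57471 and 11974, and 7 of 10 were lower in ES-Lhx6-GFP+ and 6 of 10 lower in MGE-Lhx6-GFP+ than in ES-Lhx6-GFP- cells. Cell cycle genes (10 genes) summed to 2508, 11710 and 5042, and 8 and 5 of them were lower in the same comparisons. Oligodendrocyte lineage markers (6 genes) summed to 1598, 8386 and 772, with 4 lower in each of these comparisons. Mesenchymal markers (6 genes) summed to 2813, 4531 and 182, with 2 and 5 lower. Endothelial markers summed to 529, 453 and 575, and microglial markers to 966, 596 and 704. The 4 erythroid markers summed to 802, 666 and 6134, of which *Hba-a1* gave 6004 in MGE-Lhx6-GFP+ cells. The 8 pluripotency markers summed to 232278, 258328 and 225756, nearly all of it from a *Nanog* probe of like intensity on every array, and 1, 7 and 2 of them were above the control range. Of these, 3 were lower in ES-Lhx6-GFP+ and 5 lower in MGE-Lhx6-GFP+ than in ES-Lhx6-GFP- cells. The GFP+ populations also differed from each other. In MGE-Lhx6-GFP+ versus ES-Lhx6-GFP+ cells, 7 of 15 MGE and interneuron markers and 6 of 9 cell cycle genes were higher, with 0 lower. Radial glial markers had 2 higher and 0 lower, and neuronal markers 2 higher and 1 lower. Oligodendrocyte lineage and mesenchymal markers had 0 higher, with 1 and 2 lower. Shares of all genes were 4.94% and 5.14%.

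Of the 41 FGF genes, 22 were above the control range on at least 1 array and 12 of these on all 3. The latter were *Fgf11*, *Fgf13*, *Fgf14*, *Fgf23*, *Fgfr1*, *Fgfr3*, *Spred3*, *Dusp6*, *Etv5*, *Flrt1*, *Flrt2* and *Flrt3*. The other 19 genes ranged from 5.42 to 276 in ES-Lhx6-GFP+, 4.02 to 197 in ES-Lhx6-GFP- and 3.16 to 90.7 in MGE-Lhx6-GFP+ cells, and 14 of them had their highest scaled value on the ES-Lhx6-GFP+ array, the one with the brightest controls. They were 15 secreted ligands, *Fgfr4*, *Spry3*, *Spry4* and *Etv4*. In ES-Lhx6-GFP+ versus ES-Lhx6-GFP- cells, 4 of the 37 FGF genes with a value were higher (10.8%), against 3.6% of all genes, and 3 were lower (8.11%), against 5.38% of all genes. In either direction this made 18.9% of the FGF genes and 8.98% of all genes. In MGE-Lhx6-GFP+ versus ES-Lhx6-GFP- cells, 4 of 34 were higher (11.8%, against 7.99% of all genes) and 3 lower (8.82%, against 10.3%), or 20.6% and 18.3% in either direction. In MGE-Lhx6-GFP+ versus ES-Lhx6-GFP+ cells, 1 of 37 was higher (2.70%, against 4.94%) and 3 were lower (8.11%, against 5.14%), or 10.8% and 10.1% in either direction. The shares in these last comparisons lay near those of all genes. The 3 comparisons share arrays and are not independent of each other.

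**Figure D1:**
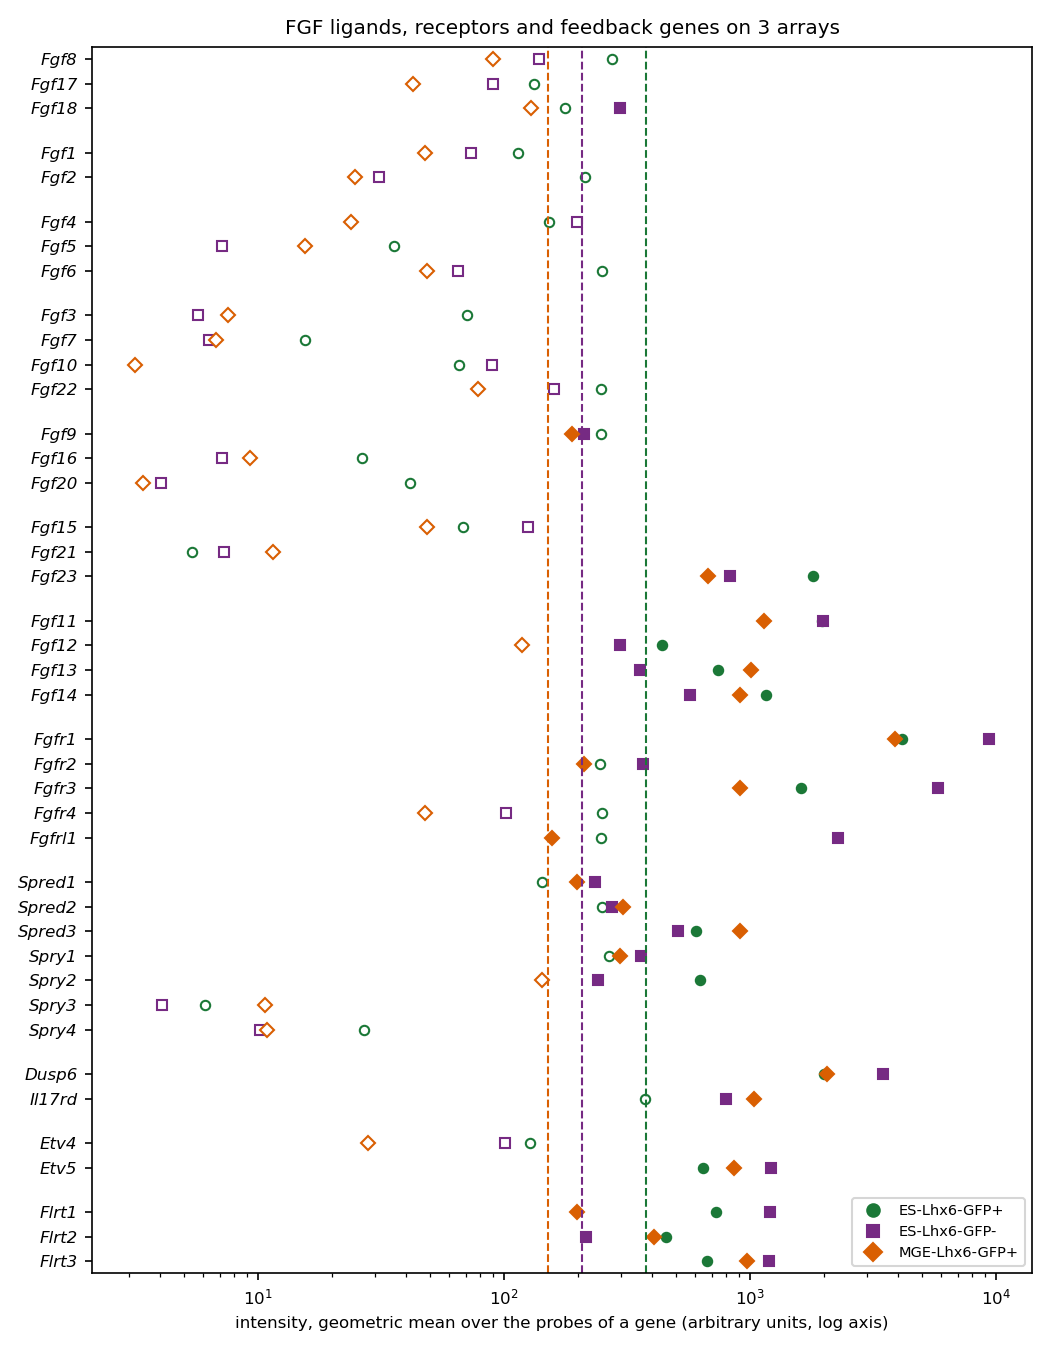
Intensity of each of the 41 FGF genes (horizontal log axis, arbitrary units) on the 3 arrays, grouped by role. Filled symbols lie above the 95th percentile of the control probes of that array (dashed line of the same color, 377, 208 and 152) and open symbols do not, and most secreted ligands in the upper blocks are open on every array. Positions of different genes are not comparable, since each has its own probes.

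The scaling between arrays moved all genes together. The median log2 difference over all genes was 0.27 in ES-Lhx6-GFP+ versus ES-Lhx6-GFP-, -0.36 in MGE-Lhx6-GFP+ versus ES-Lhx6-GFP+ and -0.06 in MGE-Lhx6-GFP+ versus ES-Lhx6-GFP- cells. The medians over the FGF genes were 0.41, -0.40 and -0.20. With the 50th percentile in place of the 75th, the all-gene medians became -0.18, 0.40 and 0.25. The FGF genes counted as higher and lower then became 1 and 9 in the first comparison, and 11 and 0 between the GFP+ populations. The genes gained as lower in the first were *Dusp6*, *Etv5*, *Fgf18*, *Flrt1*, *Flrt3* and *Il17rd*, and those gained as higher in MGE-Lhx6-GFP+ cells were *Dusp6*, *Etv5*, *Fgf13*, *Fgf23*, *Fgfr1*, *Flrt3*, *Spred1*, *Spred2*, *Spred3* and *Spry1*. Around the all-gene median itself the FGF genes were evenly spread, with 19 above and 18 below in the first comparison, 18 and 19 between the GFP+ populations, and 15 and 19 in the last.

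The largest differences among the FGF genes above the control range were those of a receptor gene. *Fgfrl1*, a receptor without a kinase domain, had intensities of 249, 2275 and 157. ES-Lhx6-GFP- cells stood far above both GFP+ populations, in which it lay at or near the control range. *Fgfrl1* was 8.10-fold lower in ES-Lhx6-GFP+ and 9.87-fold lower in MGE-Lhx6-GFP+ than in ES-Lhx6-GFP- cells. The size of the first is uncertain, since 249 lay under the control level of 377. With values under that level raised to it, the first was 5.35-fold. *Fgfrl1* was measured by 1 probe with 1 spot an array. Between them, the GFP+ populations differed 1.22-fold, within the repeat-spot spread. *Fgfr3*, a kinase receptor enriched in ventricular progenitors and astrocytes, had intensities of 2370, 9042 and 1687 with one probe and 1093, 3734 and 492 with the other. Both probes placed ES-Lhx6-GFP- cells highest and MGE-Lhx6-GFP+ cells lowest. As a mean over its probes *Fgfr3* was 3.20-fold lower in ES-Lhx6-GFP+ and 4.35-fold lower in MGE-Lhx6-GFP+ than in ES-Lhx6-GFP- cells. Between the GFP+ populations it differed 1.36-fold, a log2 difference of -0.45 that ran from -0.68 to 0.30 over the alternative settings. The differences of *Fgfrl1* and *Fgfr3* from ES-Lhx6-GFP- cells passed 2-fold in all 8 alternative settings.

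*Fgfr1*, the main FGF receptor of the early telencephalon, gave different answers with different probes. Its brightest probe (A_55_P1967015) had intensities of 27077, 26373 and 25531, nearly equal on the 3 arrays. The other probes had 3695, 11129 and 2902 (A_55_P1967022) and 717, 2827 and 791 (A_55_P2057777). These latter probes were highest in ES-Lhx6-GFP- cells and close to each other in the GFP+ populations. The mean over the 3 probes was 2.00-fold lower in ES-Lhx6-GFP+ than in ES-Lhx6-GFP- cells, at the threshold, and passed it in 3 of the 8 alternative settings. The brightest probe alone gave a log2 difference of 0.21, in the other direction. Without the brightest probe *Fgfr1* was 3.05-fold lower in ES-Lhx6-GFP+ and 2.53-fold lower in MGE-Lhx6-GFP+ than in ES-Lhx6-GFP- cells. All 3 probes carry RefSeq transcripts of *Fgfr1*, and which transcripts each detects was not tested.

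*Fgfr2*, the kinase receptor for ligands that include FGF7 and FGF10, stayed under 2-fold in every comparison, with both probes highest in ES-Lhx6-GFP- cells. A probe printed 10 times had 132 ± 15.2 (SD over 10 spots), 210 ± 17.5 (9 spots) and 106 ± 11.2 (10 spots), and a single-spot probe had 455, 646 and 428. *Fgfr2* was 1.33-fold lower in ES-Lhx6-GFP+ and 1.18-fold lower in MGE-Lhx6-GFP+ than in ES-Lhx6-GFP- cells, and neither passed 2-fold. The first became -0.85 on the log2 scale with the 50th percentile scaling and -0.81 with quantile normalization. Between the GFP+ populations the log2 difference of 0.17 became 0.92 and 0.74. Its gene value of 245 in ES-Lhx6-GFP+ cells was within the control range, as was the probe printed 10 times in both GFP+ populations. *Fgfr4*, the remaining kinase receptor, had intensities of 250, 102 and 47.8 as a mean over its probes, within the control range on each array. Its probes disagreed: one had 377, 62.9 and 48.1, in ES-Lhx6-GFP+ cells right at the control level, and the other 166, 165 and 47.6, equal in the ES-derived populations. Radial glial, cell cycle and oligodendrocyte lineage markers were lower as sets in the GFP+ populations together with *Fgfr3* and *Fgfrl1*, with the counts and summed values given above. Of the pluripotency and mesenchymal markers, 3 and 2 were lower in ES-Lhx6-GFP+ cells, and 5 of each in MGE-Lhx6-GFP+ cells. Others, such as *Zfp42* and *Col1a1*, were not lower in ES-Lhx6-GFP+ cells (log2 differences of 0.46 and 0.53). The part of all these markers in the receptor differences was not tested. In such bulk samples fewer cells of a type and less RNA per cell cannot be told apart.

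**Figure D2:**
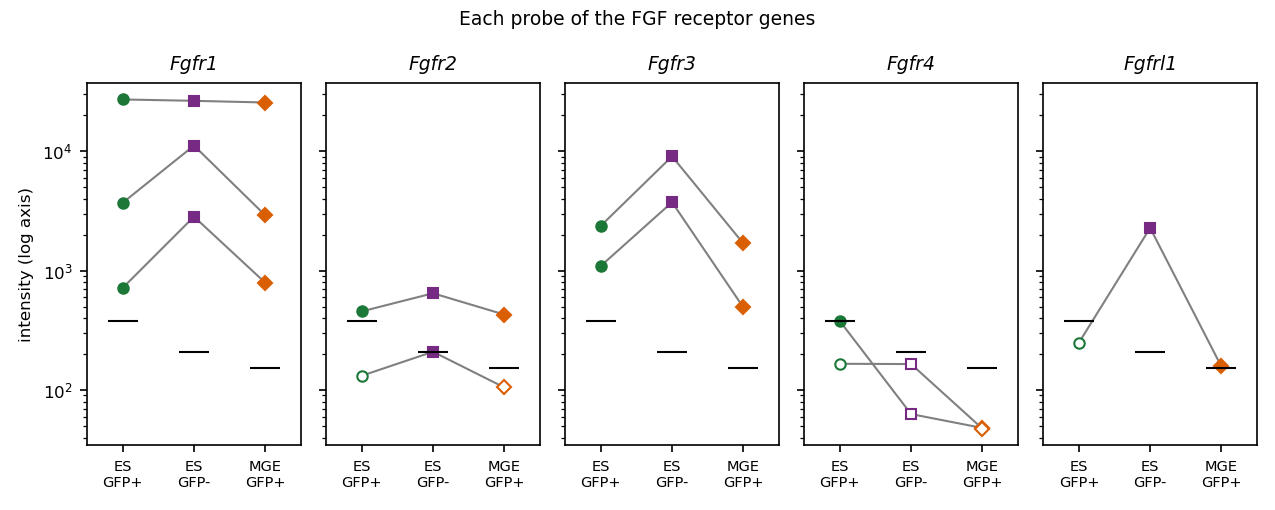
Intensity (vertical log axis, arbitrary units) of every probe of the FGF receptor genes in the 3 populations, with lines joining the values of 1 probe and black dashes for the 95th percentile of the control probes. Filled symbols lie above that level. *Fgfr3*, *Fgfrl1* and the dimmer pair of *Fgfr1* probes peak in ES-Lhx6-GFP- cells, while the brightest *Fgfr1* probe lies between 25531 and 27077 on the 3 arrays.

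Secreted ligands were mostly not separable from the control range. Of 18 secreted ligand genes, only *Fgf9*, *Fgf18* and *Fgf23* exceeded it on any array, and *Fgf7*, *Fgf16* and *Fgf21* were not well above background on any. *Fgf18*, of the FGF8 subfamily, had intensities of 145, 269 and 115 with one probe and 217, 326 and 145 with the other, and its gene value was above the control range in ES-Lhx6-GFP- cells only. It was 1.48-fold lower in ES-Lhx6-GFP+ and 1.57-fold lower in MGE-Lhx6-GFP+ than in ES-Lhx6-GFP- cells. *Fgf9*, a ligand made by neurons among other cells, had intensities of 248, 211 and 190, just past the control range in MGE-Lhx6-GFP+ and in ES-Lhx6-GFP- cells. No comparison of *Fgf9* reached 2-fold in any setting, and *Fgf18* did so only in ES-Lhx6-GFP+ versus ES-Lhx6-GFP- cells, at -1.01 with the 50th percentile scaling and -1.07 with quantile normalization.

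*Fgf23*, a bone-derived hormone of phosphate balance, passed the control range only through a probe with intensities of 171179, 162246 and 162355. That probe was of like brightness on the 3 arrays, and the other *Fgf23* probe was not well above background on any of them (18.9, 4.21 and 2.81). A similar split was seen for *Fgf8*, the patterning signal of the rostral midline. One *Fgf8* probe had 2345, 2256 and 2297 while the others had 191, 87.4 and 20.5 and 47.2, 13.7 and 15.9, and the gene value of 276, 139 and 90.7 was within the control range. *Fgf17*, a close relative of *Fgf8*, had 132, 90.7 and 42.6, and *Fgf15*, an FGF of the ventral forebrain progenitors, had 68.4, 125 and 48.8, both within it.

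*Fgf2* (basic FGF), which is added to many neural progenitor cultures, was measured by a probe printed 10 times, at 214 ± 18.8 (SD over 10 spots), 31.7 ± 7.01 (10 spots) and 25.2 ± 4.56 (9 spots). The gap between the ES-Lhx6-GFP+ array and the others was many times the SD between spots, but the value stayed under that array's control level of 377, and the same array also had the brightest controls. *Fgf10*, a ligand of *Fgfr2*, was likewise dim at 66.2 ± 8.82, 90.3 ± 8.06 and 3.27 ± 1.05, and it was not well above background in MGE-Lhx6-GFP+ cells.

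The FGF homologous factors were the members of the *Fgf* family with clear signal, apart from *Fgf12* in MGE-Lhx6-GFP+ cells. *Fgf13* had intensities of 744, 358 and 1009, higher in both GFP+ populations than in ES-Lhx6-GFP- cells. The difference was 2.34-fold for ES-Lhx6-GFP+ and 4.12-fold for MGE-Lhx6-GFP+ cells, and *Fgf13* was 1.76-fold higher in MGE-Lhx6-GFP+ than in ES-Lhx6-GFP+ cells. *Fgf13*, besides its action at sodium channels, binds microtubules in migrating neurons. *Fgf14* had 924, 301 and 676, then 552, 334 and 582, and 3105, 1845 and 1931 with its 3 probes. The brightest of these differed least between the embryonic cells and ES-Lhx6-GFP- cells. The mean for *Fgf14* was 2.31-fold higher in ES-Lhx6-GFP+ and 2.34-fold higher in MGE-Lhx6-GFP+ than in ES-Lhx6-GFP- cells, with 1.02-fold between the GFP+ populations. With the 50th percentile scaling the log2 differences in ES-Lhx6-GFP+ cells dropped to 0.79 for *Fgf13* and 0.76 for *Fgf14*, under the 2-fold line, and the brightest *Fgf14* probe gave 0.93 there and 0.62 in MGE-Lhx6-GFP+ cells. The deposited log2 values also put *Fgf14* under 2-fold in MGE-Lhx6-GFP+ cells, at 0.98.

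*Fgf12*, another of these factors that bind sodium channels, followed another order. Its brighter probe had intensities of 1406, 837 and 326, and a probe printed 10 times had 138 ± 8.39 (10 spots), 106 ± 9.94 (10 spots) and 43.4 ± 1.53 (7 spots). Both probes were highest in ES-Lhx6-GFP+ and lowest in MGE-Lhx6-GFP+ cells, although the dimmer one was within the control range throughout. *Fgf12* was 2.86-fold lower in MGE-Lhx6-GFP+ than in ES-Lhx6-GFP+ cells. Its gene value of 119 in MGE-Lhx6-GFP+ cells was within the control range, although the brighter probe was above it there. On the log2 scale its difference of -1.51 became -0.77 with the 50th percentile scaling, -0.91 with quantile normalization and -0.85 in the deposited log2 values. *Fgf11*, with 1959, 1981 and 1146, differed by no more than 1.32-fold in any comparison. The neuronal markers had unscaled sums of 89495, 65525 and 85235, but only 2 of 8 were at least 2-fold higher in each GFP+ population than in ES-Lhx6-GFP- cells. *Elavl4* was 1.77-fold lower in ES-Lhx6-GFP+ and *Rbfox3* 1.55-fold lower in MGE-Lhx6-GFP+ cells. The part of these markers in the differences of the FGF homologous factors was not tested.

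**Figure D3:**
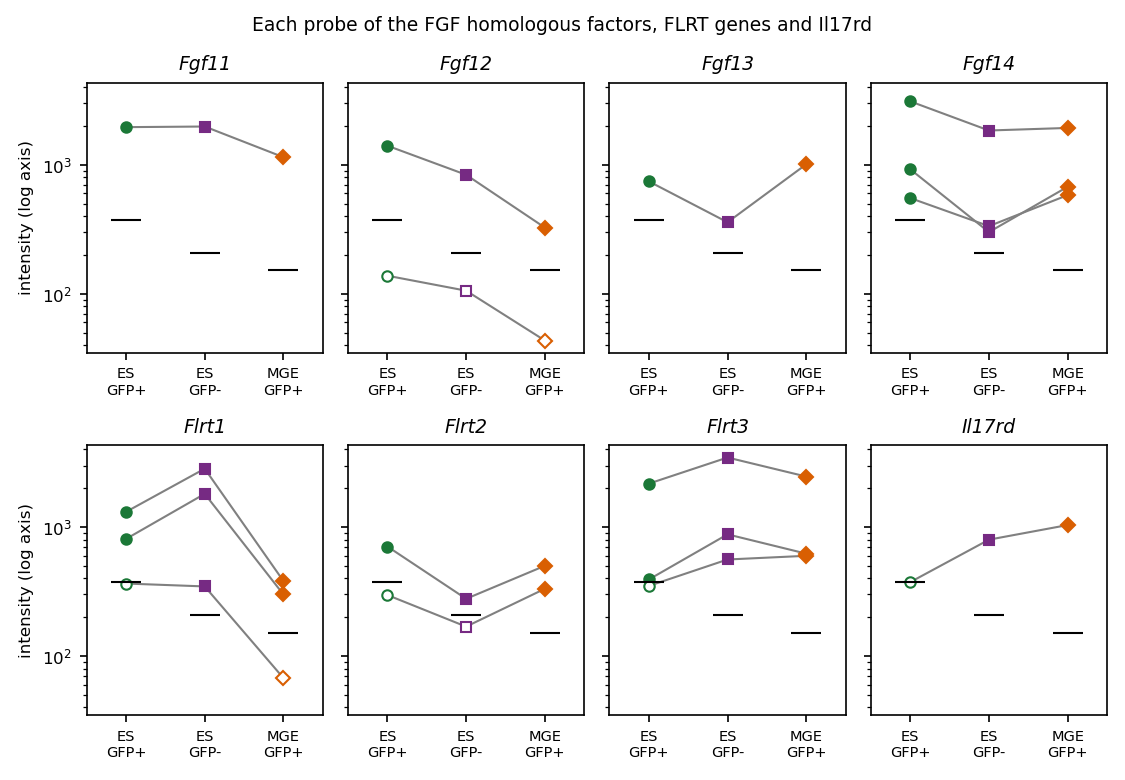
Intensity (vertical log axis, arbitrary units) of every probe of *Fgf11* to *Fgf14*, the FLRT genes and *Il17rd* in the 3 populations, with lines joining the values of 1 probe and black dashes for the 95th percentile of the control probes. Filled symbols lie above that level. *Fgf13* and *Flrt2* dip in ES-Lhx6-GFP- cells, and *Fgf12* and *Flrt1* are lowest in MGE-Lhx6-GFP+ cells.

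Feedback inhibitors above the control range on an array mostly shared a direction between the GFP+ populations, but not against ES-Lhx6-GFP- cells. In MGE-Lhx6-GFP+ versus ES-Lhx6-GFP+ cells *Spry1*, *Spred1*, *Spred2*, *Spred3*, *Dusp6* and *Il17rd* were higher (log2 0.53, 0.84, 0.67, 0.97, 0.42 and 1.85). Their lowest values over the alternative settings were 0.04, 0.50, 0.08, 0.78, 0.00 and 1.70, so the direction of *Spry1*, *Spred2* and *Dusp6* depended on the setting for its size. *Spry2* was lower (-1.75), and only *Il17rd* and *Spry2* were counted as different. In ES-Lhx6-GFP+ cells *Spry1*, *Spred1*, *Spred2* and *Il17rd* were within the control range. *Spry2*, which blocks the path from receptor to ERK, had intensities of 625, 241 and 143 and was above the control range in both ES-derived populations but not in MGE-Lhx6-GFP+ cells. Its level in ES-Lhx6-GFP+ cells was 2.92-fold that of ES-Lhx6-GFP- cells, and *Spry2* was 3.36-fold lower in MGE-Lhx6-GFP+ than in ES-Lhx6-GFP+ cells, which fell just short of 2-fold with the 50th percentile scaling. The other pair of populations differed 1.15-fold, within the repeat-spot spread. *Spry2* was thus highest on the ES-Lhx6-GFP+ array, the one with the brightest controls, and was measured by 1 probe with 1 spot an array. *Spry1* had 268, 362 and 298 and differed by at most 1.44-fold, although the 50th percentile scaling gave a log2 difference of 1.28 between the GFP+ populations. *Spry3* and *Spry4*, of the same family, were within the control range throughout.

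*Il17rd*, a membrane inhibitor of FGF signalling, had the reverse order to *Spry2* between the GFP+ populations. Its intensities were 374, 798 and 1036, lowest in ES-Lhx6-GFP+ cells, where it lay at the edge of the control range. *Il17rd* too was measured by 1 probe with 1 spot an array. It was 3.59-fold higher in MGE-Lhx6-GFP+ than in ES-Lhx6-GFP+ cells and passed 2-fold there in all 8 alternative settings. Against ES-Lhx6-GFP- cells it was 1.89-fold lower in ES-Lhx6-GFP+ and 1.90-fold higher in MGE-Lhx6-GFP+ cells, both short of 2-fold. The log2 difference of *Il17rd* in ES-Lhx6-GFP+ cells passed it at -1.36 with the 50th percentile scaling, -1.05 with quantile normalization and -1.08 in the deposited log2 values, and that in MGE-Lhx6-GFP+ cells at 1.23 with the first of these. It was the only FGF gene counted as higher in MGE-Lhx6-GFP+ than in ES-Lhx6-GFP+ cells with the 75th percentile scaling.

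*Spred3*, a Spred protein with a less active RAS-inhibiting role than its relatives, had intensities of 603, 511 and 913. It was 2.62-fold higher in MGE-Lhx6-GFP+ than in ES-Lhx6-GFP- cells in this scaling, and 1.96-fold higher than in ES-Lhx6-GFP+ cells. *Spred1*, which recruits neurofibromin to shut off RAS, had 143, 235 and 198, and *Spred2* had 250, 274 and 306. Neither differed 2-fold in any comparison with the 75th percentile scaling, and both were within the control range in ES-Lhx6-GFP+ cells. In MGE-Lhx6-GFP+ versus ES-Lhx6-GFP+ cells the log2 difference of *Spred1* became 1.59 with the 50th percentile scaling and 1.64 with quantile normalization, and that of *Spred2* 1.41 and 1.07. The lowest over the alternative settings were 0.50 for *Spred1* and 0.08 for *Spred2*.

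*Dusp6*, the cytoplasmic phosphatase of ERK and a common readout of its activity, had intensities of 1992, 3462 and 2056. It was 1.54-fold lower in ES-Lhx6-GFP+ and 1.15-fold lower in MGE-Lhx6-GFP+ than in ES-Lhx6-GFP- cells. *Etv5*, an ETS factor induced by FGF, had 642, 1222 and 861 and against ES-Lhx6-GFP- cells was 1.69-fold lower in ES-Lhx6-GFP+ and 1.03-fold higher in MGE-Lhx6-GFP+ cells. Both genes were lowest in ES-Lhx6-GFP+ cells, and neither reached 2-fold in any comparison with the 75th percentile scaling. With the 50th percentile scaling both passed it, *Dusp6* with log2 differences of -1.06 from ES-Lhx6-GFP- and 1.17 between the GFP+ populations, and *Etv5* with -1.20 and 1.55. *Dusp6* differed by 0.00 between the GFP+ populations in the deposited log2 values. *Etv4*, the partner of *Etv5*, had probe intensities of 63.2, 20.1 and 3.26 and of 257, 511 and 241, and its gene value was within the control range.

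The FLRT genes differed from each other. *Flrt1* had intensities of 1311, 2835 and 382, of 809, 1809 and 300, and of 365, 346 and 67.5 with its 3 probes, each lowest in MGE-Lhx6-GFP+ cells. In MGE-Lhx6-GFP+ cells it was 4.18-fold lower against ES-Lhx6-GFP- and 2.84-fold lower against ES-Lhx6-GFP+ cells, and the latter fell short of 2-fold only with the 50th percentile scaling, at -0.76 on the log2 scale. *Flrt2*, a repulsive ligand of Unc5 receptors on migrating neurons, ran the other way, with 707, 278 and 501 and with 297, 169 and 332. Both *Flrt2* probes were lowest in ES-Lhx6-GFP- cells. *Flrt2* was 2.39-fold higher in ES-Lhx6-GFP+ and 2.76-fold higher in MGE-Lhx6-GFP+ than in ES-Lhx6-GFP- cells, of which the first gave a log2 difference of 0.81 with the 50th percentile scaling and 0.96 in the deposited log2 values. *Flrt3*, which promotes FGF signalling by binding the receptor, had 2171, 3461 and 2463, then 392, 878 and 622, and 349, 560 and 599. It differed by at most 1.89-fold, and with the 50th percentile scaling by -1.11 from ES-Lhx6-GFP- cells in ES-Lhx6-GFP+ cells and by 1.66 between the GFP+ populations on the log2 scale.

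**Figure D4:**
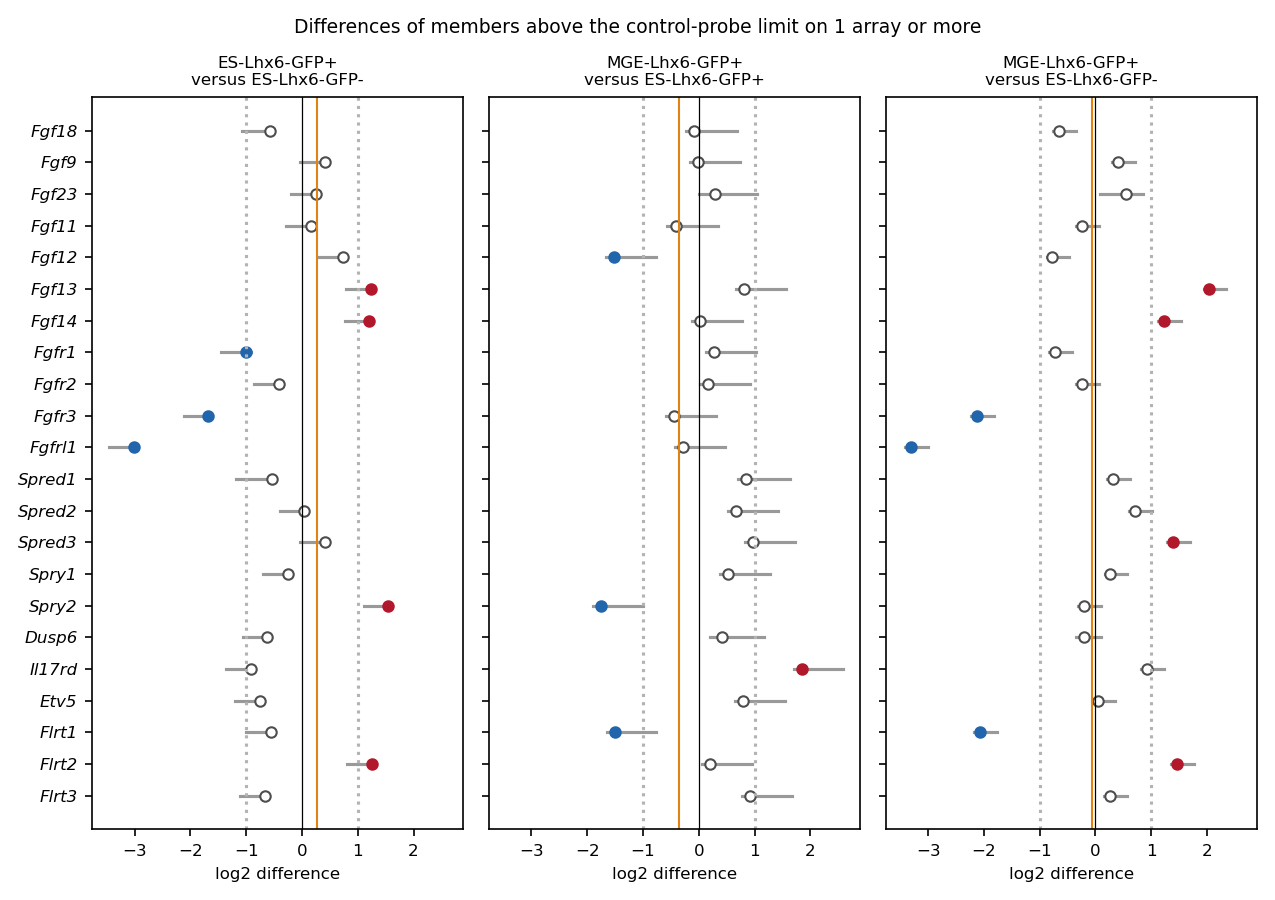
Log2 difference (horizontal axis) of the 22 FGF genes above the control range on at least 1 array, for each comparison. Filled red and blue points are at least 2-fold higher and lower, open points are not counted, gray bars span the 4 scalings between arrays, the orange line is the median of all genes (0.27, -0.36 and -0.06) and dotted lines mark 2-fold. *Fgfrl1* and *Fgfr3* lie left of the 2-fold line over their whole bars in both comparisons with ES-Lhx6-GFP- cells.

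Other genes of the pathway were read from lists of binding partners and heparan sulfate genes, RAS to ERK components and further ERK-induced genes. Of 23 genes for FGF binding partners and heparan sulfate, 2 were higher and 5 were lower in ES-Lhx6-GFP+ than in ES-Lhx6-GFP- cells, and 1 was higher and 5 lower in MGE-Lhx6-GFP+ than in ES-Lhx6-GFP- cells. Between the GFP+ populations 0 were higher and 2 lower in MGE-Lhx6-GFP+ cells. Values were obtained for 22, 22 and 21 of the 23 genes, and the shares of all genes higher and lower were 3.6% and 5.38%, 7.99% and 10.3%, and 4.94% and 5.14%. The list's median log2 differences were -0.14, -0.60 and -0.21, beside 0.27, -0.06 and -0.36 for all genes. *Fgfbp3*, a secreted FGF carrier, had intensities of 481, 6253 and 187 and was 11.5-fold lower in ES-Lhx6-GFP+ and 22.9-fold lower in MGE-Lhx6-GFP+ than in ES-Lhx6-GFP- cells. It thus had the same order as *Fgfrl1* and *Fgfr3*. *Sulf1*, an enzyme that trims heparan sulfate outside the cell, had 415, 2861 and 49.7. Against ES-Lhx6-GFP- cells it was 6.10-fold lower in ES-Lhx6-GFP+ and at least 39.3-fold lower in MGE-Lhx6-GFP+ cells, where one of its probes was not well above background. Against ES-Lhx6-GFP+ cells it was at least 6.43-fold lower there. The membrane heparan sulfate proteins divided. *Sdc4* (180, 965 and 8.74) was 4.75-fold lower in ES-Lhx6-GFP+ and at least 54.6-fold lower in MGE-Lhx6-GFP+ than in ES-Lhx6-GFP- cells, and *Sdc2* (113, 344 and 105) was 2.69-fold and 2.24-fold lower. *Gpc2*, a glypican of developing neurons, had 6020, 2868 and 5836 and was 2.37-fold and 2.98-fold higher. *Gpc3* (855, 1219 and 127) was 5.21-fold lower in MGE-Lhx6-GFP+ than in ES-Lhx6-GFP+ cells. The co-receptors of hormone-like FGFs, *Kl* and *Klb*, were within the control range on every array.

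**Figure D5:**
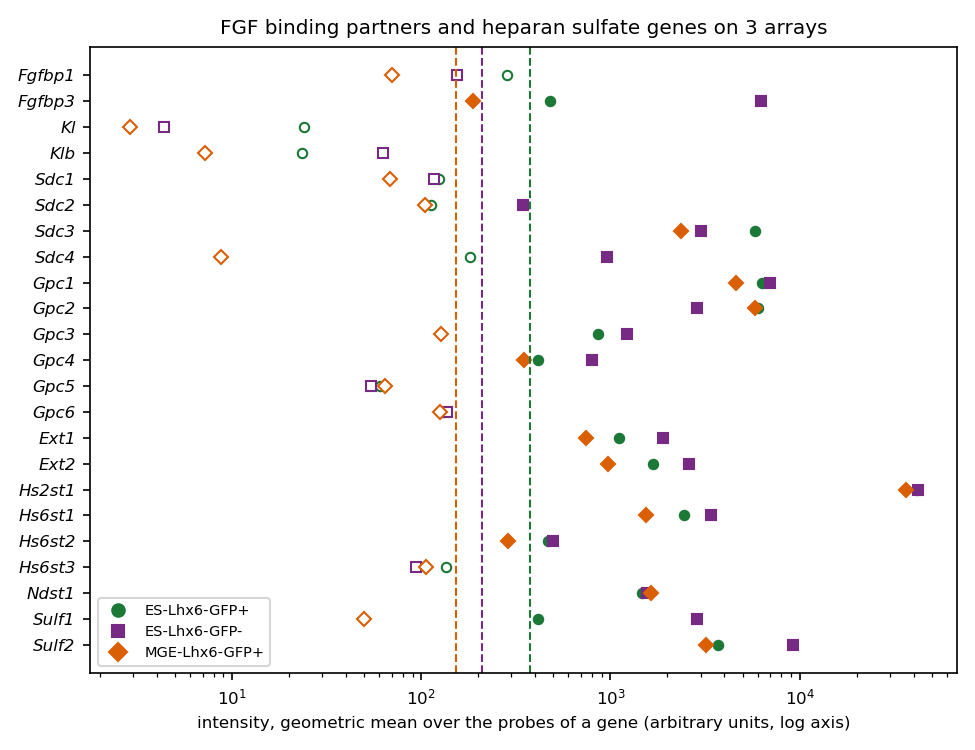
Intensity (horizontal log axis, arbitrary units) of the 23 FGF binding partner and heparan sulfate genes on the 3 arrays. Filled symbols lie above the 95th percentile of the control probes of that array (dashed line of the same color). *Fgfbp3*, *Sdc4* and *Sulf1* are highest in ES-Lhx6-GFP- cells, at 6253, 965 and 2861, and lowest in MGE-Lhx6-GFP+ cells.

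Of 25 adaptors and RAS to ERK components, 1 was higher and 2 lower in ES-Lhx6-GFP+ than in ES-Lhx6-GFP- cells, and 3 were higher and 4 lower in MGE-Lhx6-GFP+ than in ES-Lhx6-GFP- cells, with 1 each way between the GFP+ populations. The shares of all genes given for the binding partners apply here too. *Shc1*, an adaptor of tyrosine kinase receptors, had intensities of 273, 1406 and 171 and was 4.56-fold and 5.63-fold lower in these comparisons. *Rps6ka1*, a kinase downstream of ERK, had 560, 1445 and 174 and was 2.29-fold and 5.66-fold lower. *Map2k1*, which activates ERK, was 3.31-fold lower in MGE-Lhx6-GFP+ than in ES-Lhx6-GFP- cells, while *Rasa1*, an inhibitor of RAS, was 2.34-fold higher there and 2.61-fold higher than in ES-Lhx6-GFP+ cells. The list's median log2 differences were 0.20 and 0.29 against ES-Lhx6-GFP- cells and 0.11 between the GFP+ populations, beside 0.27, -0.06 and -0.36 for all genes.

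Of 12 further ERK-induced genes, 1 was higher and 2 lower in ES-Lhx6-GFP+ than in ES-Lhx6-GFP- cells, and 2 were higher and 1 lower in MGE-Lhx6-GFP+ than in ES-Lhx6-GFP+ cells. Against ES-Lhx6-GFP- cells, MGE-Lhx6-GFP+ cells had 2 higher and 2 lower. Shares of all genes were 3.6% higher and 5.38% lower, 4.94% and 5.14%, and 7.99% and 10.3% in these comparisons, and the list's medians were -0.01, -0.13 and -0.18 on the log2 scale. *Etv1*, an ETS factor related to *Etv4* and *Etv5* that the paper lists as a globus pallidus marker, had intensities of 142, 383 and 2145. The first of these was within the control range. In MGE-Lhx6-GFP+ cells *Etv1* was 19.5-fold higher against ES-Lhx6-GFP+ and 8.20-fold higher against ES-Lhx6-GFP- cells. *Etv5* differed 1.74-fold and 1.03-fold in the same comparisons. *Dusp4*, a nuclear relative of *Dusp6*, had 1062, 1184 and 1892 and was 2.31-fold higher in MGE-Lhx6-GFP+ than in ES-Lhx6-GFP+ cells. Against ES-Lhx6-GFP- cells *Dusp4* was 2.34-fold higher. *Egr1*, an immediate early gene, had 6130, 3407 and 2347 and was highest in ES-Lhx6-GFP+ cells. The differences were 2.03-fold over ES-Lhx6-GFP- and 2.01-fold over MGE-Lhx6-GFP+ cells, both close to the 2-fold threshold. *Ccnd1*, the cyclin of the early cell cycle, had 901, 5871 and 761 and was 5.77-fold lower in ES-Lhx6-GFP+ than in ES-Lhx6-GFP- cells, in the same direction as the cell cycle genes given above, and 5.27-fold lower in MGE-Lhx6-GFP+ cells. *Ier2*, an immediate early gene, had 308, 320 and 73.9 and was 2.96-fold lower in MGE-Lhx6-GFP+ than in ES-Lhx6-GFP- cells.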

How the data were processed

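The files the authors deposited hold spot intensity from Agilent Feature Extraction (version 10.7.3.1 in the file headers), background-subtracted and not scaled between arrays. The labels and the methods name different amplification kits and array formats. The deposited table of log2 values lay within 0.212 of quantile-normalized log2 median intensity for every probe. Its direction is that of intensity, and it was used as an alternative.

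All 3 arrays lie on 1 slide, so no batch could be fitted. Spots with an outlier flag (135, 137 and 98 on the arrays, in the order of the report) were left out, 0 were saturated, and repeat spots were averaged as log2 values. The software's call decided whether a probe was well above background, with a share of 0.5 of its kept spots needed (50452, 44695 and 42908 of 55681 probes). Otherwise it was raised to the lowest such value on that array, giving a fold of "at least". Gene differences are means over probes with a value on either array. Accessions were matched to RefSeq symbols of GRCm38.p6, which named 26582 probes and 20145 genes. Array coordinates were not used.

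Alternatives were 3 other scalings, normexp (limma 3.58.1, offset 50), the deposited log2 values, no floor, a floor at the control level, and the brightest probe. Normexp ran on median spot signals, since the files used here hold no mean signals. Calculations used python 3.11.15, numpy 2.4.6, pandas 2.3.3 and R 4.3.3, and were tested on simulated data. Every FGF gene above the control range on at least 1 array is given with its values, and of each pathway list up to 5 genes per comparison, those with the largest differences. A result for a listed gene is counted in its list but not reported here. *Fgf2*, *Fgf8*, *Fgf10*, *Fgf15*, *Fgf17*, *Fgfr4* and *Etv4*, within the control range, were named after their values were seen, for their known roles or probes. The genes and lists were chosen with earlier results of these data known. Nothing states separate cultures or embryos behind an array, and no p-value was computed.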

Additional observations from a re-analysis of the deposited data

How the results depend on the processing

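No paired analysis was possible because each group had 1 array, and for the same reason no array could be left out. Of 18 differences of at least 2-fold among the FGF genes, 10 held in all 8 alternatives. The 50th percentile scaling kept 12, quantile normalization 16, the scaling on probes above the control range 17, normexp 17, the deposited log2 values 14, the brightest probe 15, and both settings of the floor 18. In ES-Lhx6-GFP+ versus ES-Lhx6-GFP- cells, the 4 higher genes became 1 and the 3 lower became 9 with the 50th percentile scaling, and quantile normalization gave 5 lower. In MGE-Lhx6-GFP+ versus ES-Lhx6-GFP+ cells, the 1 higher gene became 11 and the 3 lower became 0 with the 50th percentile scaling, and quantile normalization gave 3 higher. In MGE-Lhx6-GFP+ versus ES-Lhx6-GFP- cells, counts of 4 higher and 3 lower stayed within 1.5 times throughout. The 50th percentile scaling moves all genes of an array together by construction. The cause of the quantile normalization shifts, which differ from gene to gene, was not tested. 1 called difference turned: *Fgfr1* in ES-Lhx6-GFP+ versus ES-Lhx6-GFP- cells was 0.21 on the log2 scale with its brightest probe, while the mean over its probes was 2.00-fold lower. Its value without that probe was chosen after the data were seen. Dim genes are limited by the control range, which was highest on the ES-Lhx6-GFP+ array.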
